A study of Rattus norvegicus with 120 samples.

Results

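Interferon response genes were followed through the kidneys of rats given 1 of 3 immunosuppressants. The genes came from a list of 41 known interferon-inducible genes of antiviral defence, antigen processing and interferon signalling. A gene was kept where at least 1 probe set of the array mapped to it alone, and where several did, the probe set with the highest mean over all arrays stood for it. This gave 39 genes of the 14217 measured. Samd9 and Xaf1 had no such probe set and were not analysed here.

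Interferons are secreted when cells sense viral or misplaced nucleic acid, or by activated lymphocytes. Type I interferons signal through the kinases Jak1 and Tyk2 to a complex that includes Stat2 and Irf9 and binds the interferon-stimulated response element (ISRE) of target genes. Interferon gamma acts through gamma-activated sites (GAS) and raises Irf1, which drives the immunoproteasome and peptide transporter genes. Most organs also express these genes at a low basal level in resident cells and leukocytes.

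Each array held the kidney RNA of 1 male Sprague-Dawley rat, aged 5 to 7 weeks before treatment, and there were 120 rats. The treatments were cyclosporine (CsA) at 25 or 2.5 mg/kg, tacrolimus (FK506) at 6 or 0.6 mg/kg, rapamycin (Rapa) at 10 or 1 mg/kg, and olive oil as the vehicle, injected into the peritoneum once a day for 1, 7, 14 or 28 days. Kidneys were taken 24 hours after the last dose, from different rats at each day. CsA and FK506 inhibit calcineurin, the phosphatase that activates NFAT transcription factors in T cells, whereas Rapa, a macrolide related to FK506, inhibits the kinase mTOR. Groups held 4 rats, except that FK506 6 mg/kg at day 14 held 3. The day 28 groups held 4 rats for CsA 25 mg/kg, 5 for CsA 2.5 mg/kg, 5 for FK506 6 mg/kg, 6 for FK506 0.6 mg/kg, 6 for each Rapa dose and 5 for vehicle. All rats were of the same strain and sex, and the treated rats of a day were compared with the same vehicle rats.

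Levels are given as log2 of the intensity plus 16 after quantile normalization, so 1 unit is a doubling of that sum. A difference was called at an adjusted p under 0.05 over 10663 genes in limma. The kidney markers Slc34a1 (13.69), Umod (13.69) and Lrp2 (13.13) were high, as the tissue label has it. Levels of whole kidney cannot tell fewer cells of a type from less RNA per cell. In 4 arrays the liver gene Alb was above 12, and CsA 25 mg/kg replicates 3 and 4 at day 1 were among them (14.49 and 14.38, against 5.67 and 5.73 in replicates 1 and 2 of that group). The others were CsA 2.5 mg/kg replicate 4 at day 14 (13.50) and CsA 2.5 mg/kg replicate 2 at day 28 (13.11). The array of CsA 25 mg/kg replicate 3 at day 28 held 5273 probe sets at 0 and had the lowest median intensity (51.99, with the others between 63.69 and 86.08). For comparisons that hold these arrays, counts or values without them are given where stated, and not for every gene.

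The upstream sequences of 7 genes are shown because interferon factors bind such sites. From the genes called lower with Rapa 10 mg/kg at day 7, 3 were picked. Another 4 were picked from those called higher with FK506 6 mg/kg at day 28. The 2 sets are not separate classes, since Irf8 and Gbp2 of the FK506 set were also called lower with Rapa 10 mg/kg at day 7. Irf1 was called lower with Rapa 1 mg/kg at that day. RefSeq windows of the GRCr8 build, from 250 bases before to 50 after the gene's start, were found for 34 of the 41 listed genes, and not for Mx2, Ifit2, Zbp1, Isg15, Usp18, Dhx58 and Rtp4. A pair of letter patterns was searched on both strands. They were the ISRE core GAAANNGAA (TTCNNTTTC on the other strand) and the GAS pattern TTCNNNGAA, which reads the same on both strands. Capitals mark these matches in the 250 bases upstream of the start, written 5′ to 3′ on the strand of the gene. Among genes called lower with Rapa 10 mg/kg at day 7 were Irf7 (chr1:205800024-205800273, minus strand), Ddx60 (chr16:33208840-33209089, minus strand) and Ifi44l (chr2:243328473-243328722, plus strand).
Irf7: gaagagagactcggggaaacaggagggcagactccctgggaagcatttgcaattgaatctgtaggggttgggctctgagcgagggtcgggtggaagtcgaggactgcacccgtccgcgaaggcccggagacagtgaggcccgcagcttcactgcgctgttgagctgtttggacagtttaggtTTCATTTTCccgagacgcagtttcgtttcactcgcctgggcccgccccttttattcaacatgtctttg
Ddx60: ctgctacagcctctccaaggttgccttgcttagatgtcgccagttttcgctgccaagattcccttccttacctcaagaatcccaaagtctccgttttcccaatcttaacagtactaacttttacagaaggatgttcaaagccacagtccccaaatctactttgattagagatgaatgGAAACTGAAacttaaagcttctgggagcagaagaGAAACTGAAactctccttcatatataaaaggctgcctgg
Ifi44l: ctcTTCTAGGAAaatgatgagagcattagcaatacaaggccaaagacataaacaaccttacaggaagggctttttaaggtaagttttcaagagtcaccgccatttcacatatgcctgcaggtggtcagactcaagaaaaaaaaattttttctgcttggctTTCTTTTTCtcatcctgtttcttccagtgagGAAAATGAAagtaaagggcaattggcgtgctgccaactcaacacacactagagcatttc
Among genes called higher with FK506 6 mg/kg at day 28 were Irf1 (chr10:38417685-38417934, plus strand), Irf8 (chr19:65699034-65699283, plus strand), Psmb10 (chr19:50743293-50743542, minus strand) and Gbp2 (chr2:234005477-234005726, plus strand).
Irf1: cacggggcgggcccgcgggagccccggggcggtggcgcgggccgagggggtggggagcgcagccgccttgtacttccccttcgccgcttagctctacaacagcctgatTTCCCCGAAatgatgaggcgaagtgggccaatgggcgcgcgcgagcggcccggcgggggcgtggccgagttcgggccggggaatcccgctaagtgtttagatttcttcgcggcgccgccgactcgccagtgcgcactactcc
Irf8: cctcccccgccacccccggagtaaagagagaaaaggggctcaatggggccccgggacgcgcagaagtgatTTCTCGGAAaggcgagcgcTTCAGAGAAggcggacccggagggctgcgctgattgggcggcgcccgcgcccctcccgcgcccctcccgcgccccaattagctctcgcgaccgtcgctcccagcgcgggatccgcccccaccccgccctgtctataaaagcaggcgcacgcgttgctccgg
Psmb10: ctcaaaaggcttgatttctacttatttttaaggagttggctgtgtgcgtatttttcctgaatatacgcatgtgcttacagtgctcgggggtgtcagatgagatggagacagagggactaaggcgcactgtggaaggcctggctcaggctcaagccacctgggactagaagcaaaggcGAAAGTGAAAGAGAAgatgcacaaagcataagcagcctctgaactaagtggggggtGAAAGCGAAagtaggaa
Gbp2: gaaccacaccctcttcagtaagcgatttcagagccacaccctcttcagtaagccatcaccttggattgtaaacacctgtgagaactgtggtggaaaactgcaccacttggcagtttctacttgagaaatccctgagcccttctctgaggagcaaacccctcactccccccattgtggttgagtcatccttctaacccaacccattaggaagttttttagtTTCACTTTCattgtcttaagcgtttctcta
Irf7 held 1 ISRE core that began 68 bases upstream of its start, Ddx60 held 2, at 73 and 39 bases, and Ifi44l held 2, at 90 and 59 bases, with a GAS match at 247. Irf1 held 1 GAS match at 142 bases and Irf8 held 2, at 180 and 161, and neither had an ISRE core in the window. Psmb10 held 3 ISRE cores, at 73, 67 and 17 bases, of which the first 2 overlapped by 3 bases, and Gbp2 held 1 at 30.

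Over the whole 300-base windows, 23 of the 34 held an ISRE core (67.6%), against 9.71% of all 33469 promoters in the table. A GAS match was present in 11 (32.4%), against 8.87% of all promoters, and 8 held both (23.5%, against 1.11%). The ISRE core was in all 5 windows of the other interferon-inducible genes (Ifi44, Ifi44l, Ifi27, Xaf1, Lgals3bp), in 5 of 6 of the antigen processing genes and in 1 of the 5 transcription factors, where GAS matches were found in 3. Neither pattern was found in the windows of Mx1, Slfn4, Stat2, Oasl, Herc6, Trim25, Psmb9 and Parp9. Called genes are among these, though every sequence printed above holds a match. Mx1, Slfn4, Stat2 and Parp9 were called lower with Rapa 10 mg/kg at day 7. Psmb9 and Parp9 were called higher with FK506 6 mg/kg at day 28. A match is only a match of letters.

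The genes ranged widely in basal level. Their means over all arrays ran from 5.84 for Ddx60, a helicase that aids cytoplasmic RNA sensing, to 10.77 for Ifitm3, a membrane protein that blocks viral entry. By percentile among all genes they lay between 26.1 and 92.9, with a median of 47.8, and all 39 passed the filter on dim genes. Across the 28 groups, the group means spread most for Usp18, a protease that removes Isg15 from proteins, whose lowest was 5.24 and highest 7.78. They spread little for Eif2ak2, the RNA-activated kinase PKR (7.48 to 7.96). The lowest group mean was in a Rapa group for 30 of the 39 genes, 16 of them in Rapa 10 mg/kg at day 7. The highest was in a CsA group for 28 genes, 16 of them in CsA 25 mg/kg at day 1, and in FK506 6 mg/kg at day 28 for 7. The shares of all genes with their lowest or highest mean in these groups were not counted.

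**Figure D1:**
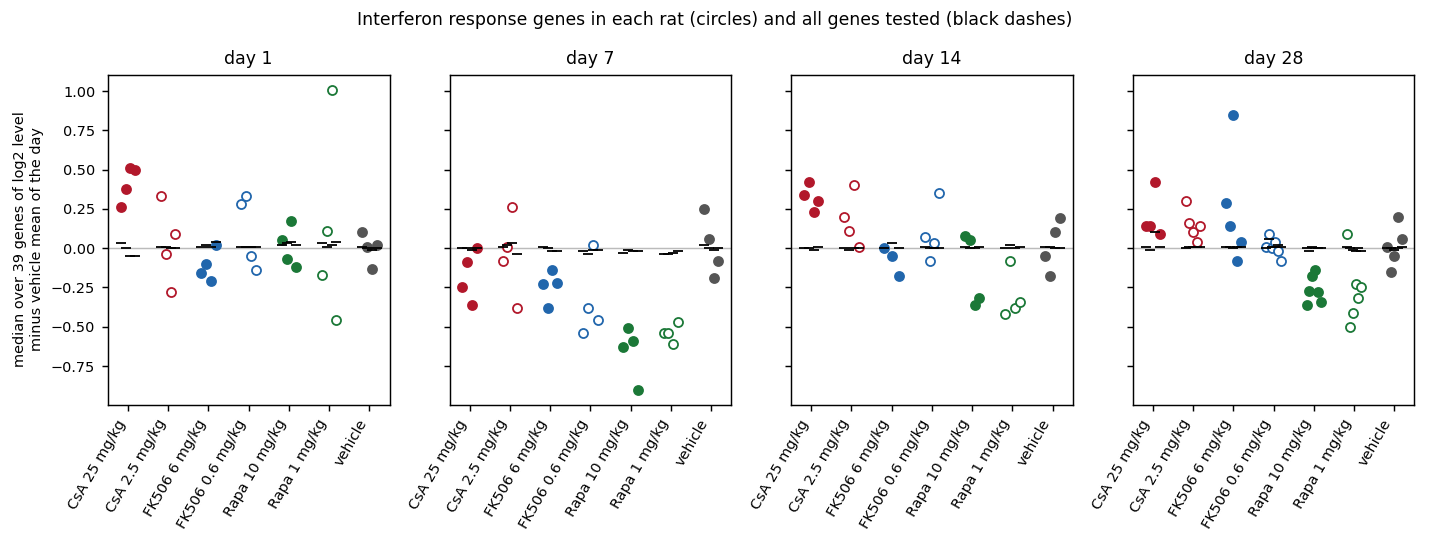
Median over the 39 interferon response genes of each rat's log2 level minus the vehicle mean of its day (vertical axis), by day and treatment, with 1 circle per rat and a black dash for the same median over all genes tested. All rats of both Rapa groups at day 7 lie between -0.90 and -0.47, and the highest single rats are in Rapa 1 mg/kg at day 1 (1.01) and FK506 6 mg/kg at day 28 (0.85).

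Against vehicle, 31 of the 39 genes were called in at least 1 of 24 comparisons. There were 22 calls higher and 35 lower among 936 tests (2.35% and 3.74%), beside 2.64% higher and 2.58% lower over all gene tests of these comparisons. Of all 10663 genes, 51.9% were called in at least 1 of the 24, against 79.5% of the 39. The 39 were chosen with earlier results of these data known, and the part of that choice in the larger share was not tested. These comparisons share vehicle rats within a day. Of the 31 genes called, 18 were called only lower, 7 only higher, and 6 in both directions (Irf1, Irf8, Mx1, Tap1, Gbp2 and Parp9). The 8 never called against vehicle were Irf9 (group means 7.08 to 7.88), Oasl (6.39 to 7.53), Rsad2 (7.68 to 9.11), Eif2ak2, Herc6 (5.88 to 6.99), Ifih1 (5.71 to 6.59), Tapbp (7.32 to 7.95) and Parp14 (7.67 to 8.41). They include the DNA-binding subunit of the type I interferon complex (Irf9), the antiviral enzyme viperin (Rsad2), the RNA sensor MDA5 (Ifih1) and the peptide-loading factor tapasin (Tapbp).

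**Figure D2:**
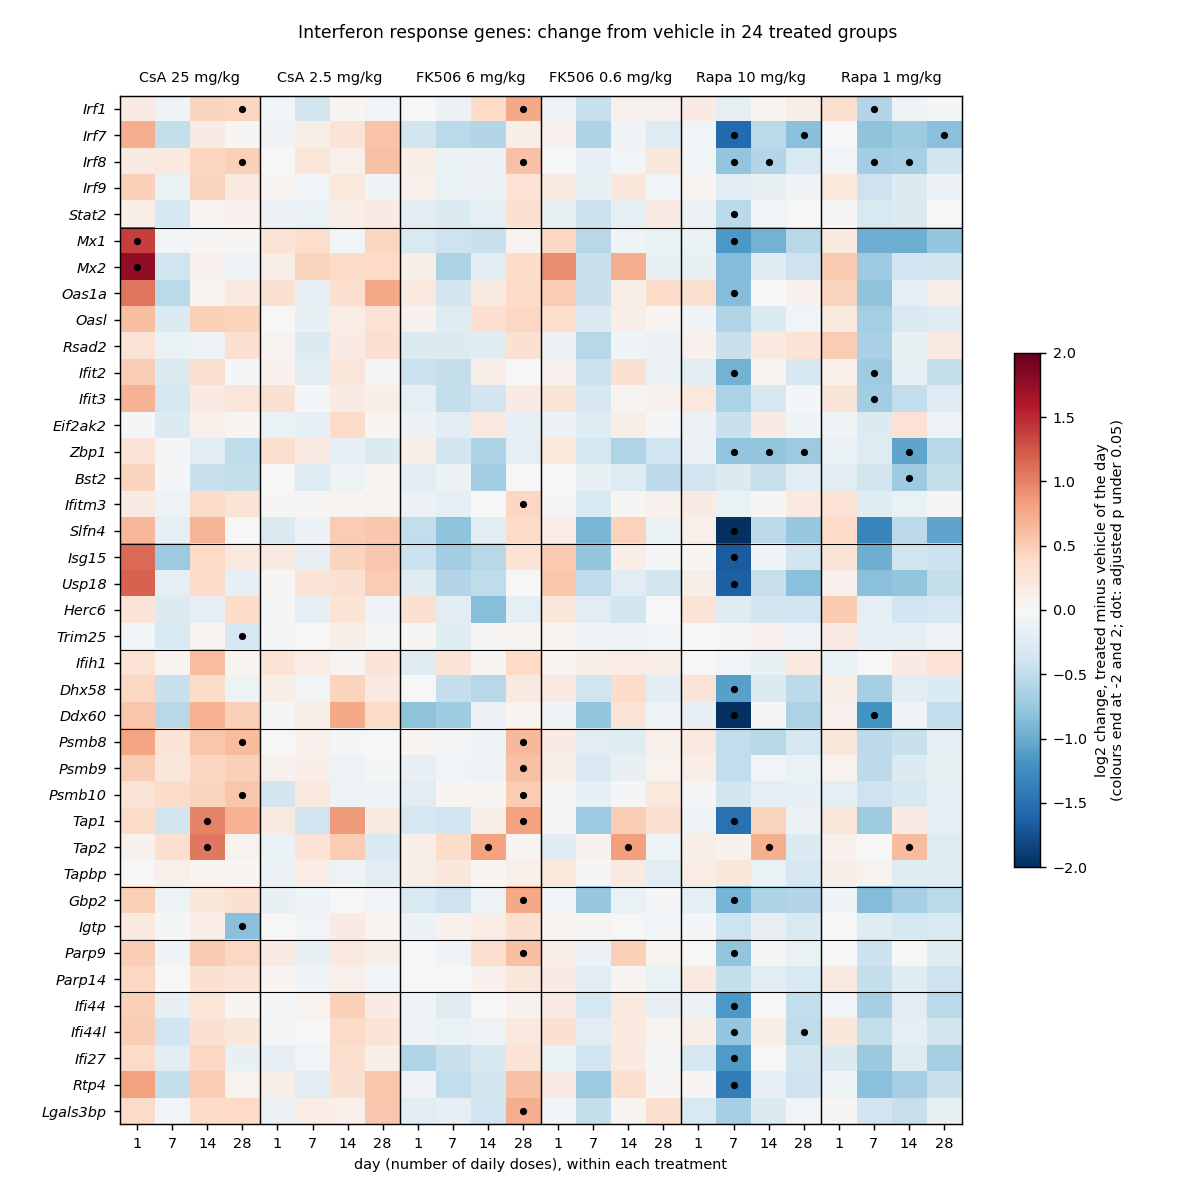
Log2 change against the vehicle rats of the day (colour) for each of the 39 genes (rows, grouped by role) in 24 treated groups (columns), with calls at an adjusted p under 0.05 marked. Rapa 10 mg/kg at day 7 holds 19 calls lower, and FK506 6 mg/kg at day 28 holds 10 calls higher, 4 of them antigen processing genes.

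After a single dose of CsA at 25 mg/kg, the dynamin-like antiviral GTPases Mx1 and Mx2 rose. Mx1 was at 7.98, 8.30, 8.58 and 8.53 in CsA rats, against 7.22, 6.68, 6.81 and 7.17 in vehicle rats, a log2 change of 1.38 (SE 0.36, limma adjusted p = 0.0385). Mx2 was at 7.49, 8.39, 8.64 and 8.47 in CsA rats, against 7.07, 6.41, 6.12 and 6.30 in vehicle rats (1.77, SE 0.40, adjusted p = 0.00692). In both genes the groups did not overlap. These 2 were the only calls among the 39, against 0.619% of all genes called higher and 0.0563% called lower. The median change of the 39 was 0.45, with 36 positive, beside -0.02 over all genes. Isg15, the ubiquitin-like modifier, was at 8.09, 8.51, 8.76 and 8.58 in CsA rats, against 7.69, 7.27, 6.93 and 7.49 in vehicle rats, a change of 1.14 (SE 0.35) that missed the threshold (adjusted p = 0.134). Irf7, the factor that amplifies interferon production, was at 9.78, 9.82, 9.43 and 9.75 in CsA rats, against 9.24, 8.94, 8.62 and 9.12 in vehicle rats, a change of 0.72 (SE 0.33) that missed it too. For Isg15 and Irf7 too, every CsA rat lay above every vehicle rat, as for 13 of the 39 genes and for 1.74% of all genes.

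Replicates 3 and 4 of the CsA rats were those with high Alb, and 6 of the 7 liver genes tested were called higher (median change 3.18). Without the high-Alb arrays neither Mx gene was called, at changes of 1.17 for Mx1 (adjusted p = 0.965) and 1.46 for Mx2 (adjusted p = 0.917). The CsA rats with low Alb, replicates 1 and 2, lay above all vehicle rats in both Mx genes, and their median member changes were 0.26 and 0.38, against 0.51 and 0.50 in replicates 3 and 4. The other Mx2 probe set, dimmer at a mean of 5.17, changed by 0.33 and was not called (adjusted p = 1). Of 11 macrophage and monocyte markers none was called in limma, with 3 at an unadjusted p under 0.05, and all 11 were positive (median change 0.23). Their summed intensity ran from 8197 to 9243 in CsA rats and from 6416 to 7194 in FK506 6 mg/kg rats, against 7553 to 7741 in vehicle rats, so that these 3 groups did not overlap. Such sums, here and for the later days, add deposited intensities before normalization, so the brightest markers weigh most. Of the 11, Lyz2 had the highest mean level (12.30), then Fcer1g (10.19), with the others between 7.01 and 8.45. The part of these markers in the CsA results at day 1 was not tested.

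Set directly against FK506 6 mg/kg after 1 dose, CsA 25 mg/kg was higher in 7 of the 39 genes and lower in none (0.619% of all genes higher, 0.0750% lower). They were Mx1 (1.69, SE 0.36, adjusted p = 0.0037), Mx2 (1.66), Isg15 (1.57), Usp18 (1.43), Ddx60 (1.36), and the RNA-binding proteins Ifit2 (0.92) and Ifit3 (0.86). Isg15 was at 8.09, 8.51, 8.76 and 8.58 in CsA rats, against 7.07, 6.68, 6.55 and 7.37 in FK506 rats. The groups did not overlap in any of the 7, and the share of all genes without overlap was not counted for this comparison. Without the high-Alb arrays none of the 7 was called. All 11 macrophage and monocyte markers were higher with CsA here (median difference 0.57), none of them called in limma and 6 at an unadjusted p under 0.05. The second Ifit2 probe set gave 0.93 (adjusted p = 0.0112). Against vehicle, FK506 6 mg/kg at day 1 gave no call among the 39 in limma, with 2 at an unadjusted p under 0.05 (0.0281% of all genes called, 6.23% at that unadjusted p). Rapa 10 mg/kg gave no call at that day either, and 0 at an unadjusted p under 0.05 (2.81% and 14.5% of all genes). The 3-prime minus 5-prime difference of Gapdh, a measure of RNA quality and labelling, set the Rapa arrays of day 1 apart. It was 0.74 ± 0.17 with Rapa 10 mg/kg and 0.67 ± 0.17 with Rapa 1 mg/kg, against 0.33 ± 0.04 with vehicle (SD, n = 4 each). Its part in the Rapa results at day 1, or in the change of the Rapa effect given below, was not tested.

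After 7 doses of Rapa the genes were lower. With Rapa 10 mg/kg, 19 of the 39 were called lower and none higher, against 4.30% of all genes lower and 3.03% higher. The median change of the 39 was -0.66, and 37 were negative. In 18 of the 19 called genes all Rapa rats lay below all vehicle rats, the exception being Parp9. By role, the called genes were 3 of 5 transcription factors, 5 of 12 antiviral effectors, 2 of 4 genes of the Isg15 and ubiquitin ligase group, 2 of 3 cytoplasmic RNA sensors, 1 of 6 antigen processing genes, 1 of 2 GTPases, 1 of 2 ADP-ribosyltransferases and 4 of 5 other inducible genes.

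**Figure D3:**
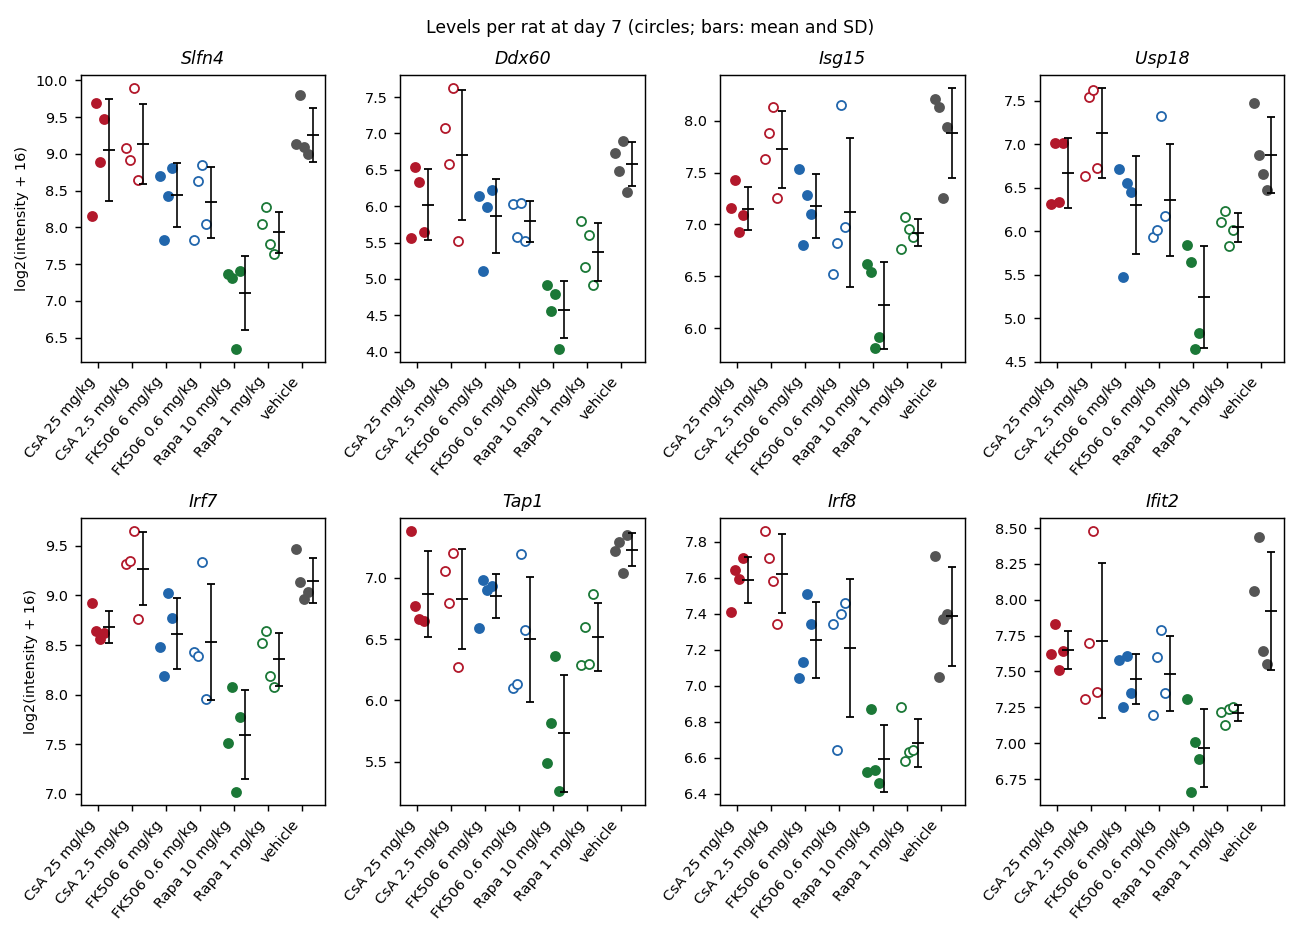
Log2 level (intensity plus 16, quantile normalized) at day 7 in each rat of the 7 treatments for 8 genes, with 1 circle per rat and bars for the group mean and SD. The Rapa 10 mg/kg rats lie below all vehicle rats in Ddx60, Slfn4, Isg15 and Irf7.

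Among the transcription factors, Irf7 was at 7.51, 8.08, 7.02 and 7.78 in Rapa 10 mg/kg rats and 8.52, 8.64, 8.19 and 8.08 in Rapa 1 mg/kg rats, against 9.47, 9.14, 8.96 and 9.03 in vehicle rats. The change was -1.56 at the higher dose (SE 0.33, limma adjusted p = 0.000902), and all rats of both doses lay below all vehicle rats. Irf8, a factor of macrophages and dendritic cells, was at 6.52, 6.87, 6.53 and 6.46 in Rapa 10 mg/kg rats and 6.88, 6.58, 6.63 and 6.64 in Rapa 1 mg/kg rats, against 7.72, 7.05, 7.37 and 7.40 in vehicle rats. It fell by 0.79 (SE 0.18, adjusted p = 0.00213) and by 0.70 (adjusted p = 0.0118). Stat2, which carries the activation domain of the type I complex, fell by 0.54 at the higher dose (SE 0.14, adjusted p = 0.00745), and its second probe set by 0.72 (adjusted p = 0.0376). Irf1 was called at the lower dose only, at 7.89, 8.09, 7.69 and 7.85 in Rapa 1 mg/kg rats against 8.61, 8.37, 8.36 and 8.54 in vehicle rats (-0.59, SE 0.17, adjusted p = 0.0246). In Rapa 10 mg/kg rats it was at 7.99, 8.10, 8.63 and 8.39, which overlapped the vehicle rats.

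Among the antiviral effectors, the largest fall was that of Slfn4, a Schlafen gene studied mainly in mouse myeloid cells. It was at 7.36, 7.31, 6.35 and 7.41 in Rapa 10 mg/kg rats and 8.04, 8.27, 7.78 and 7.64 in Rapa 1 mg/kg rats, against 9.13, 9.80, 9.09 and 9.00 in vehicle rats. At the higher dose this was a change of -2.15 (SE 0.44, limma adjusted p = 0.000556), a ratio of 0.225 to vehicle on this scale. A second, dim Slfn4 probe set (mean 5.01) changed by 0.52 and was not called (adjusted p = 0.425). Ifit2 was at 7.31, 6.66, 7.01 and 6.89 in Rapa 10 mg/kg rats and 7.22, 7.13, 7.24 and 7.25 in Rapa 1 mg/kg rats, against 8.06, 8.44, 7.64 and 7.55 in vehicle rats, and was called lower at both doses (-0.95 and -0.71). Its second probe set was not called at either (-0.61 and -0.39). Mx1 was at 5.63, 6.58, 5.83 and 6.18 in Rapa 10 mg/kg rats, against 7.90, 7.42, 6.59 and 6.90 in vehicle rats. Its change was -1.15 (SE 0.36, adjusted p = 0.0348), and the highest Rapa rat nearly met the lowest vehicle rat. Oas1a, which makes the oligoadenylates that activate RNase L, fell by 0.87 (adjusted p = 0.0495), and Zbp1, a sensor of Z-form nucleic acid, by 0.79 (adjusted p = 0.0379). Mx2 was not called, at 5.64, 6.43, 5.56 and 6.19 in Rapa 10 mg/kg rats against 7.66, 6.85, 6.36 and 6.43 in vehicle rats.

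Isg15, Usp18, Ddx60 and Dhx58 fell too, whereas the RNA sensor Ifih1 was not called (5.87 in Rapa 10 mg/kg rats, against 5.93 in vehicle rats). Isg15 was at 6.62, 6.54, 5.81 and 5.91 in Rapa 10 mg/kg rats and 6.76, 7.07, 6.96 and 6.88 in Rapa 1 mg/kg rats, against 8.21, 8.13, 7.25 and 7.94 in vehicle rats (-1.66 at the higher dose, SE 0.35, adjusted p = 0.000902). Usp18 was at 5.84, 5.65, 4.65 and 4.83 in Rapa 10 mg/kg rats, against 7.48, 6.88, 6.66 and 6.48 in vehicle rats (-1.63, SE 0.38, adjusted p = 0.00244). Every rat of either Rapa dose lay below every vehicle rat in Isg15. Ddx60 was at 4.92, 4.56, 4.79 and 4.04 in Rapa 10 mg/kg rats and 5.80, 5.16, 5.60 and 4.92 in Rapa 1 mg/kg rats, against 6.73, 6.49, 6.89 and 6.19 in vehicle rats. It was called at both doses, at -1.99 (SE 0.36, limma adjusted p = 8.58e-05) and -1.20 (adjusted p = 0.0353). Dhx58, the regulatory RNA sensor LGP2, fell by 1.09 (SE 0.26, adjusted p = 0.00352). Its vehicle mean at day 7, 6.39, was the highest of its 28 group means, with 5.95 and 5.97 in vehicle rats at days 1 and 28. Of its other probe sets, one fell by 1.22 (adjusted p = 0.00277) and the other, at -0.17, was not called.

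Tap1, a subunit of the transporter that carries peptides to class I molecules, was the only antigen processing gene called, at 5.49, 5.82, 6.36 and 5.26 in Rapa 10 mg/kg rats against 7.22, 7.29, 7.04 and 7.35 in vehicle rats (-1.49, SE 0.30, adjusted p = 0.000392). A dim second probe set (mean 4.80) gave -0.21, not called. Gbp2, a guanylate-binding GTPase, was at 6.57, 7.28, 6.55 and 6.39 in Rapa 10 mg/kg rats against 8.03, 7.36, 7.41 and 7.71 in vehicle rats (-0.93, adjusted p = 0.0275). Parp9, an ADP-ribosyltransferase partner of the ubiquitin ligase Dtx3l, fell by 0.79 (adjusted p = 0.00598). Of the other inducible genes, the receptor transporter protein Rtp4 fell by 1.38 (adjusted p = 0.001), Ifi44 by 1.15, the mitochondrial Ifi27 by 1.13 and Ifi44l by 0.78. Ifi44 was at 4.67 in Rapa 10 mg/kg replicate 4, with the other 3 rats of the group between 6.04 and 6.55.

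With Rapa 1 mg/kg at day 7, 5 of the 39 were called lower and none higher (2.60% of all genes lower, 1.61% higher), namely Ddx60, Ifit2, Irf8, Ifit3 (-0.69, adjusted p = 0.0499) and Irf1. The median change was -0.59, and 27 genes had an unadjusted p under 0.05 (17.2% of all genes), beside 28 at the higher dose (21.2%). In each Rapa group all rats lay below all vehicle rats in 22 of the 39 genes, as in 5.84% of all genes at 10 mg/kg and 6.13% at 1 mg/kg. Leaving out 1 vehicle rat, replicate 1, left 0 of the 5 calls at the lower dose. At the higher dose leaving out Rapa replicate 4 left 12. The other drugs gave no call at day 7: CsA 25 mg/kg had a median change of -0.17 (4.01% of all genes called), FK506 6 mg/kg -0.24 (3.17%), FK506 0.6 mg/kg -0.35 (1.93%) and CsA 2.5 mg/kg -0.05 (0%). In limma at an unadjusted p under 0.05 CsA 25 mg/kg had 4 of the 39 (17.0% of all genes), FK506 6 mg/kg 3 (16.3%), FK506 0.6 mg/kg 11 (15.2%) and CsA 2.5 mg/kg 1 (7.97%). All these comparisons share the same 4 vehicle rats.

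FK506 6 mg/kg and Rapa 10 mg/kg, compared directly at day 7 and so without the vehicle rats, differed in 8 genes, all higher with FK506 (4.08% of all genes higher, 2.35% lower). They were Slfn4 (1.34), Ddx60 (1.29), Tap1 (1.12), Irf7 (1.02), Ifi44 (0.92), Parp9 (0.71), Irf8 (0.66) and Ifi44l (0.66). Ifi44l was at 7.36, 7.41, 7.67 and 7.40 in FK506 rats, against 6.97, 6.85, 7.00 and 6.39 in Rapa rats, with a gap between the groups. Irf8 had a limma adjusted p of 0.0125 and Tap1 of 0.0101, and the groups overlapped in Parp9 and Ifi44. The doses of these related macrolides differ in mg/kg, so the contrast is between these doses and not between equal exposures. Leaving out Rapa 10 mg/kg replicate 4 left 1 of the 8 calls.

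Other measures differed too at day 7, and not only in the Rapa groups. Of 11 macrophage and monocyte markers, 2 were called lower with Rapa 10 mg/kg (median change -0.61) and 1 with Rapa 1 mg/kg (-0.50). Their summed intensity ran from 5641 to 6929 in Rapa 10 mg/kg rats, against 6335 to 9675 in vehicle rats, and none of these markers was near 0. Of 15 T cell and NK cell markers 4 passed the filter on dim genes and 1 of these was called lower, and the sum over the 15 ran from 412 to 538 in Rapa 10 mg/kg rats, against 445 to 622 in vehicle rats. The 3-prime minus 5-prime difference of Gapdh, a measure of RNA quality and labelling, was 0.39 ± 0.04 with Rapa 10 mg/kg, 0.42 ± 0.06 with Rapa 1 mg/kg and 0.44 ± 0.07 with FK506 6 mg/kg, against 0.73 ± 0.17 with vehicle (SD, n = 4 each). It was also 0.43 ± 0.06 with CsA 25 mg/kg and 0.44 ± 0.02 with FK506 0.6 mg/kg, but 0.79 ± 0.33 with CsA 2.5 mg/kg. Its mean thus lay below that of vehicle in every treated group of the day except CsA 2.5 mg/kg. With that difference as a covariate, 14 genes were called lower with Rapa 10 mg/kg, 0 with Rapa 1 mg/kg, and 8 between FK506 and Rapa. The shares of all genes called in that fit were not counted. The part of the cell markers in the result was not tested.

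At day 14 few of the 39 were called. Tap2, the partner of Tap1 in the peptide transporter, was called higher than vehicle in 5 of the 6 treated groups, all set against the same 4 vehicle rats at 5.95, 5.64, 5.92 and 5.10. It was at 6.61, 6.62, 6.61 and 6.97 in CsA 25 mg/kg rats (1.05, SE 0.21, limma adjusted p = 0.000196), and in FK506 0.6 mg/kg rats at 6.71, 6.39, 6.41 and 6.37 (0.82, adjusted p = 0.0279). The changes were 0.80 with FK506 6 mg/kg, 0.71 with Rapa 10 mg/kg and 0.64 with Rapa 1 mg/kg. In CsA 2.5 mg/kg rats its mean of 6.15 was not called. The vehicle mean at day 14, 5.65, was the lowest of the 28 group means of this gene. Without vehicle replicate 4, the rat at 5.10, only CsA 25 mg/kg kept the call, and the change was 0.61 with FK506 6 mg/kg, 0.63 with FK506 0.6 mg/kg, 0.52 with Rapa 10 mg/kg and 0.45 with Rapa 1 mg/kg. The calls with either FK506 dose and with Rapa 1 mg/kg were also lost without vehicle replicate 2. Besides Tap2, Tap1 rose with CsA 25 mg/kg (0.99, SE 0.30, adjusted p = 0.0234), which was at 6.94, 6.87, 7.51 and 7.11 in CsA rats against 6.78, 4.57, 6.58 and 6.54 in vehicle rats, so that 1 vehicle rat lay far below the rest. Without that rat the change was 0.47 and the call was lost. With CsA 25 mg/kg 2 genes were called higher and none lower (4.73% of all genes higher, 3.16% lower), so the share of the 39 called higher lay near that of all genes. The median change was 0.36, and in 14 of the 39 all CsA rats lay above all vehicle rats, as in 7.44% of all genes. Of the macrophage markers, 7 of 11 were called higher in that group, with sums from 12479 to 15791 in CsA rats against 7396 to 8751 in vehicle rats.

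Irf8 and Zbp1 fell at day 14 at both Rapa doses. Zbp1 was at 6.01, 5.61, 5.34 and 5.30 in Rapa 10 mg/kg rats and 4.41, 5.45, 5.50 and 5.81 in Rapa 1 mg/kg rats, against 6.31, 6.17, 6.79 and 6.14 in vehicle rats (-0.79, adjusted p = 0.0281, and -1.06, adjusted p = 0.00298). Irf8 was at 6.90, 6.89, 6.60 and 6.59 in Rapa 10 mg/kg rats and 6.80, 6.82, 6.39 and 6.59 in Rapa 1 mg/kg rats, against 7.29, 7.02, 7.56 and 7.43 in vehicle rats (-0.58 and -0.67). Neither gene's groups overlapped. Bst2, the tetherin that holds budding virus at the cell surface, fell with Rapa 1 mg/kg, at 8.23, 8.14, 8.56 and 8.50 against 8.91, 9.02, 9.09 and 9.33 in vehicle rats (-0.73, SE 0.20, adjusted p = 0.0127). In all, Rapa 10 mg/kg had 1 call higher and 2 lower (5.20% and 5.22% of all genes), and Rapa 1 mg/kg 1 higher and 3 lower (4.08% and 4.99%), with median changes of -0.15 and -0.27. Leaving out Rapa 10 mg/kg replicate 3 left 0 of that group's calls. FK506 6 mg/kg and FK506 0.6 mg/kg each had the Tap2 call alone (1.24% of all genes higher and 1.45% lower at 6 mg/kg, 0.375% and 0.497% at 0.6 mg/kg), and CsA 2.5 mg/kg had none in limma, with 4 at an unadjusted p under 0.05 (0.0656% of all genes called either way, 7.04% at that unadjusted p). Macrophage markers were called lower with Rapa, 6 of 11 at 10 mg/kg and 5 of 11 at 1 mg/kg. Their part in the result was not tested.

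At day 28 with FK506 6 mg/kg, 10 of the 39 genes rose and none fell, against 8.63% of all genes higher and 7.35% lower. The median change was 0.29 and 35 were positive. By role, the rises were in 4 of 6 antigen processing genes, 2 of 5 transcription factors, 1 of 12 antiviral effectors, 1 of 2 GTPases, 1 of 2 ADP-ribosyltransferases and 1 of 5 other genes, with none among the Isg15 group or the RNA sensors. Of the 10, Irf8, Tap1, Gbp2 and Parp9 were also among the 19 called lower with Rapa 10 mg/kg at day 7, which is 40% of the FK506 list and 21.1% of the Rapa list.

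**Figure D4:**
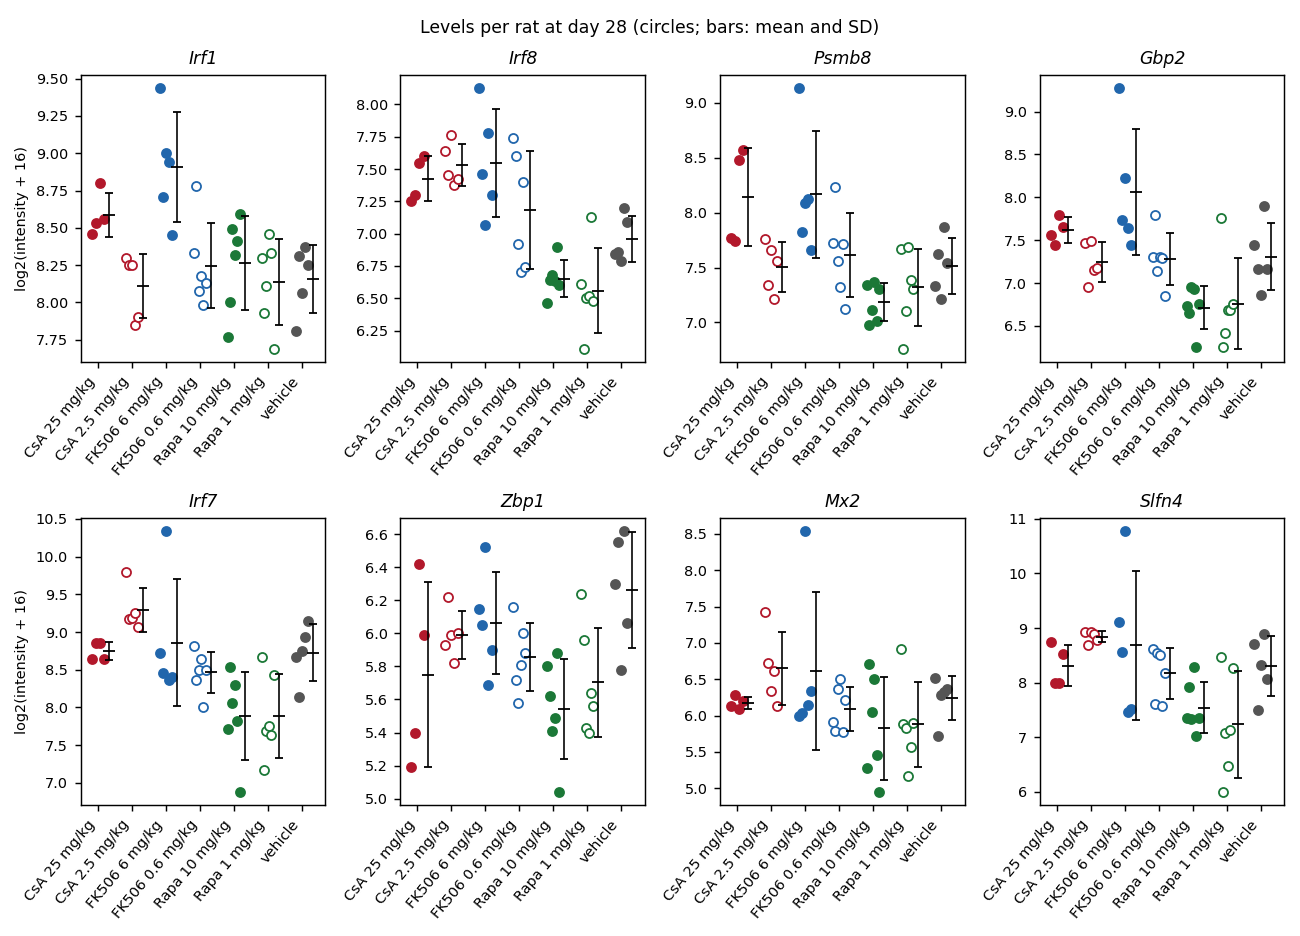
Log2 level (intensity plus 16, quantile normalized) at day 28 in each rat of the 7 treatments for 8 genes, with 1 circle per rat and bars for the group mean and SD. FK506 replicate 1 is the highest rat in Psmb8 and Gbp2 (9.14 and 9.28), and FK506 replicate 3 in Mx2 and Irf7 (8.54 and 10.34).

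Irf1 was at 9.44, 8.71, 9.00, 8.94 and 8.45 in FK506 6 mg/kg rats, against 7.81, 8.31, 8.06, 8.37 and 8.25 in vehicle rats, with no overlap, and rose by 0.75 (SE 0.15, limma adjusted p = 0.000117). It was also the only member called between the FK506 doses, higher at 6 than at 0.6 mg/kg (0.66, SE 0.14, adjusted p = 0.005; 0.581% of all genes higher, 1.01% lower), where the median change was 0.34. Irf8 was at 8.13, 7.46, 7.07, 7.78 and 7.30 in FK506 rats, against 6.84, 6.86, 6.79, 7.20 and 7.09 in vehicle rats, which overlap (0.59, SE 0.16, adjusted p = 0.00523).

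The antigen processing genes that rose were the 3 immunoproteasome subunits, which replace constitutive subunits and change how peptides are cut, and Tap1. Psmb8 was at 9.14, 7.82, 8.09, 8.12 and 7.66 in FK506 6 mg/kg rats, against 7.33, 7.62, 7.21, 7.87 and 7.54 in vehicle rats (0.65, SE 0.20, adjusted p = 0.0168). Psmb9 rose by 0.59 (adjusted p = 0.0145) and Psmb10 by 0.50 (adjusted p = 0.0181). Tap1 was at 8.40, 7.19, 7.50, 6.86 and 6.87 in FK506 rats, against 6.30, 6.67, 6.31, 6.80 and 6.76 in vehicle rats (0.80, SE 0.27, adjusted p = 0.0266). In each of these 4 genes replicate 1 was the highest FK506 rat, and only Tap1 had no overlap between groups. Outside this role, Gbp2 was at 9.28, 7.74, 8.22, 7.64 and 7.45 in FK506 rats, against 7.44, 7.16, 6.86, 7.90 and 7.17 in vehicle rats (0.76, SE 0.25, adjusted p = 0.0267). Lgals3bp, a secreted galectin-binding glycoprotein, was at 8.85, 8.66, 10.22, 9.00 and 8.90 in FK506 rats, against 8.32, 7.95, 8.30, 8.68 and 8.77 in vehicle rats (0.72, adjusted p = 0.00623). Parp9 rose by 0.60 and Ifitm3 by 0.41 (adjusted p = 0.0124).

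The FK506 rats of day 28 differed among themselves. Over the 39 genes, the median change of replicates 1 to 5 was 0.29, 0.14, 0.85, -0.08 and 0.04. Replicate 1 had the highest value of all 120 arrays for 8 of the 39 genes, a count not made over all genes. Replicate 3 lay above all vehicle rats in 35 of 39, and in 28.2% of all genes. In Mx2 the FK506 rats were at 6.00, 6.03, 8.54, 6.14 and 6.34, and in Isg15 at 7.10, 6.87, 8.66, 6.66 and 6.86, so replicate 3 stood apart from the other 4 rats, and neither gene was called. Irf7 was at 8.72, 8.46, 10.34, 8.37 and 8.40 in FK506 rats, against 8.67, 8.14, 8.75, 8.93 and 9.15 in vehicle rats, and was not called. Leaving out FK506 replicate 1 left 4 of the 10 calls.

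CsA 25 mg/kg at day 28 had 4 genes higher and 2 lower, against 10.5% of all genes higher and 10.6% lower, so the share of the 39 called higher lay near that of all genes. Irf1 was at 8.46, 8.53, 8.80 and 8.56 in CsA rats, against 7.81, 8.31, 8.06, 8.37 and 8.25 in vehicle rats (0.43, SE 0.16, limma adjusted p = 0.0394). Psmb10 was at 7.81, 7.77, 8.19 and 8.33 in CsA rats, against 7.58, 7.39, 7.44, 7.64 and 7.27 in vehicle rats (0.56, SE 0.17, adjusted p = 0.00859). Psmb8 was at 7.77, 7.74, 8.48 and 8.57 in CsA rats, against 7.33, 7.62, 7.21, 7.87 and 7.54 in vehicle rats (0.63, adjusted p = 0.0255), with overlap. Irf8 was at 7.25, 7.30, 7.55 and 7.60 in CsA rats and rose by 0.47 (adjusted p = 0.035), with no overlap. Trim25, the ubiquitin ligase that activates the sensor RIG-I, fell by 0.34 (adjusted p = 0.0297). The call of Igtp, an immunity-related GTPase, rested on 1 array. It was at 8.20, 8.17, 4.34 and 8.24 in CsA rats, against 7.96, 8.28, 7.74, 8.21 and 8.15 in vehicle rats, where 4.34 is the array with zeros. Its change was -0.83 with that array and 0.14 without it (adjusted p = 0.62), and its second probe set gave -0.14. The changes given for Irf1, Psmb10, Psmb8, Irf8 and Trim25 include that array. Without that array 2 genes were called higher and 3 lower in this comparison, and without CsA replicate 4 only 2 in all.

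The CsA doses at day 28 differed in 4 genes higher and 2 lower at 25 than at 2.5 mg/kg (8.82% and 9.58% of all genes). Those higher were Irf1 (0.48), Psmb8 (0.63), Psmb9 (0.52) and Psmb10 (0.64, adjusted p = 0.00309), and those lower Bst2 (-0.52) and Igtp (-0.88, and 0.09 without the array with zeros). CsA 2.5 mg/kg gave no call against vehicle in limma at day 1 or day 28 either (0% of all genes called), with 1 at day 1 and 4 at day 28 at an unadjusted p under 0.05 (2.33% and 3.99% of all genes). CsA 25 mg/kg against FK506 6 mg/kg at day 28 gave 2 genes lower, Igtp (-1.15) and Trim25 (-0.39), and none higher (3.57% and 2.10%). Without the array with zeros 1 gene was called between these drugs and 3 between the CsA doses. Without the high-Alb arrays, CsA 2.5 mg/kg replicate 2 of day 28 among them, 3 were called between the CsA doses. CsA 25 mg/kg and FK506 6 mg/kg gave no call in limma at day 7 (0.938% of all genes called) or day 14 (1.97%). At an unadjusted p under 0.05 they had 0 of the 39 at day 7 (9.26% of all genes) and 18 at day 14 (14.0%).

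At day 28 Irf7 was lower with both Rapa doses. With 10 mg/kg 3 genes were called lower and none higher (8.16% of all genes lower, 7.62% higher), the median change was -0.31 and 34 were negative. Irf7 ran from 6.88 to 8.54 with a median of 7.94 in Rapa 10 mg/kg rats and from 7.17 to 8.67 with a median of 7.72 in Rapa 1 mg/kg rats, against 8.67, 8.14, 8.75, 8.93 and 9.15 in vehicle rats. It fell by 0.84 (SE 0.28, limma adjusted p = 0.0284) and by 0.83 (adjusted p = 0.0416), and the groups overlapped. Zbp1 ran from 5.04 to 5.88 with a median of 5.56 in Rapa 10 mg/kg rats, against 6.30, 6.55, 5.78, 6.62 and 6.06 in vehicle rats (-0.72, adjusted p = 0.0115). Ifi44l ran from 6.75 to 7.16 with a median of 6.88, against 7.39, 7.18, 7.69, 7.47 and 7.36 in vehicle rats, with no overlap (-0.51, adjusted p = 0.0362). Rapa 1 mg/kg had the Irf7 call alone (5.12% of all genes lower, 4.67% higher), with a median change of -0.28. That call was lost without any 1 of 8 of the 11 rats, vehicle replicates 1, 3, 4 and 5 among them, and with the hybridization controls as a covariate. The mean of these controls, spiked in before hybridization, was 9.94 ± 1.17 with Rapa 1 mg/kg (SD, n = 6), against 10.89 ± 0.06 with vehicle (n = 5). Replicate 1 of Rapa 1 mg/kg stood at a median change of 0.09, with the others between -0.50 and -0.23, and 8 genes were called without it. Leaving out vehicle replicate 4 left 0 calls at the higher dose. The Rapa doses gave no call in limma and 0 at an unadjusted p under 0.05 (0.122% of all genes called, 8.48% at that unadjusted p).

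**Figure D5:**
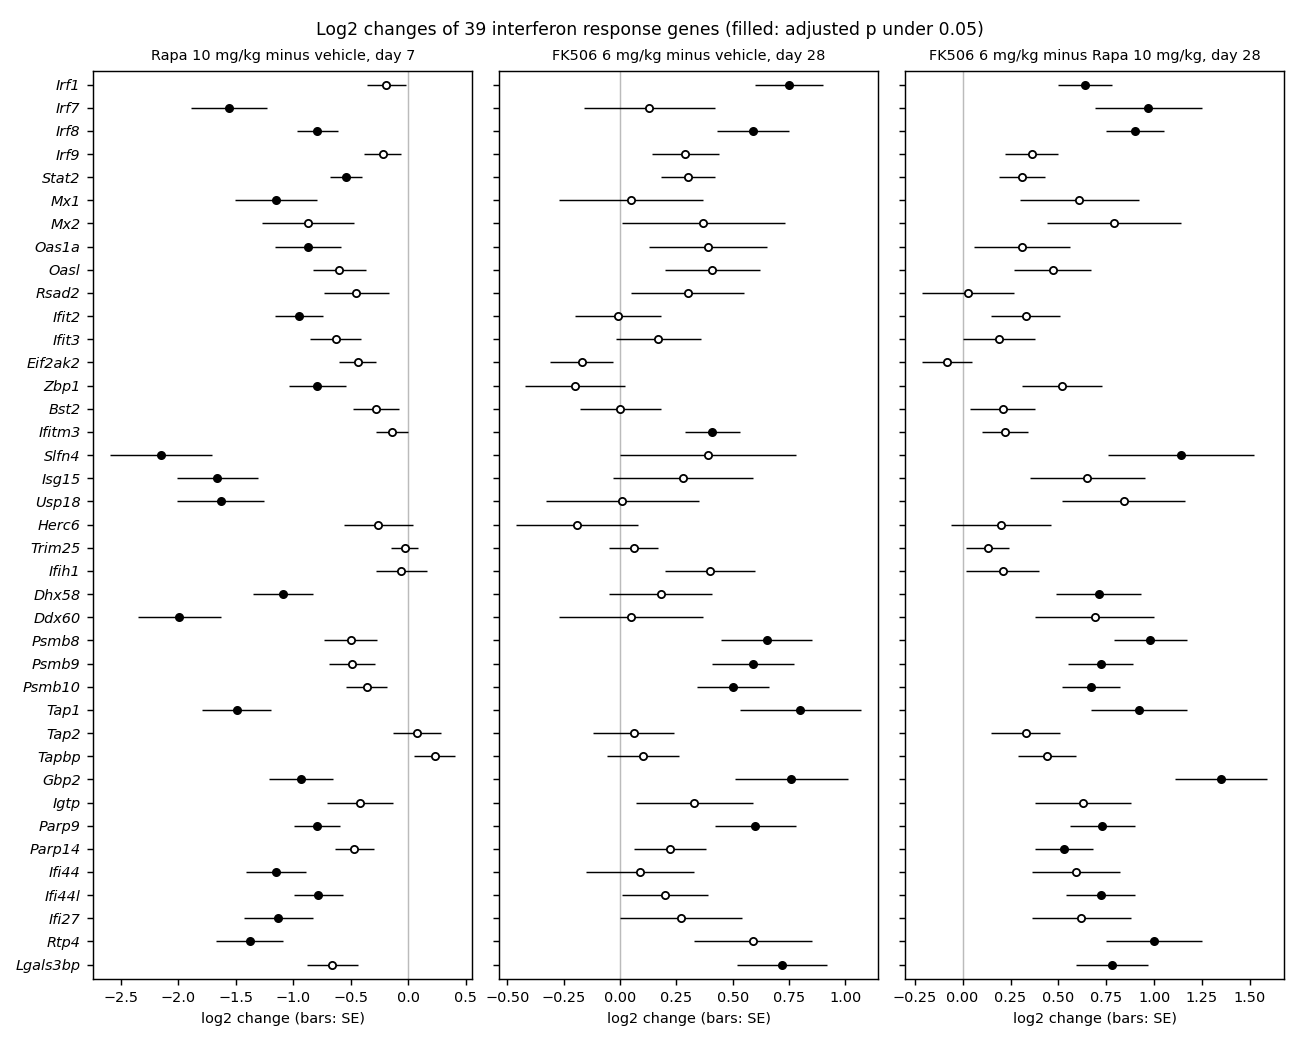
Log2 change of each of the 39 genes (rows, grouped by role) with Rapa 10 mg/kg against vehicle at day 7, FK506 6 mg/kg against vehicle at day 28 and FK506 6 mg/kg against Rapa 10 mg/kg at day 28, with lines for the SE and filled points for calls at an adjusted p under 0.05. The calls number 19 lower, 10 higher and 15 higher in these 3 comparisons.

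Compared directly at day 28, FK506 6 mg/kg was higher than Rapa 10 mg/kg in 15 of the 39 genes and lower in none (6.68% of all genes higher, 4.23% lower). The median difference was 0.62 and 38 of 39 were positive. By role these were 3 of 5 transcription factors, 4 of 6 antigen processing genes, both ADP-ribosyltransferases, 3 of 5 other genes, and 1 each of the antiviral effectors, GTPases and RNA sensors. Gbp2 was at 9.28, 7.74, 8.22, 7.64 and 7.45 in FK506 rats, against 6.26 to 6.96 with a median of 6.74 in Rapa rats (1.35, SE 0.24, limma adjusted p = 2.99e-05). Irf8 was at 8.13, 7.46, 7.07, 7.78 and 7.30 in FK506 rats, against 6.46 to 6.90 with a median of 6.63 in Rapa rats (0.90, SE 0.15, adjusted p = 1.24e-05). Psmb8 was at 9.14, 7.82, 8.09, 8.12 and 7.66 in FK506 rats, against 6.98 to 7.37 with a median of 7.21 in Rapa rats (0.98, SE 0.19, adjusted p = 0.000171). In these 3 genes the groups did not overlap, nor did they in Parp9 (0.73) and Ifi44l (0.72), whereas in the other 10 they did. Those were Slfn4 (1.14), Rtp4 (1.00), Irf7 (0.97), Tap1 (0.92), Lgals3bp (0.78), Psmb9 (0.72), Dhx58 (0.71), Psmb10 (0.67), Irf1 (0.64) and Parp14 (0.53). Parp14, an ADP-ribosyltransferase of macrophages and B cells, was called here though in no comparison with vehicle, and its second probe set gave 0.62 (adjusted p = 0.0323). The share of all genes without overlap was not counted for this comparison. Leaving out FK506 replicate 3 left 10 of the calls. At day 1 (1.63% of all genes called) and day 14 (9.49%) these drugs gave no call among the 39 in limma. At an unadjusted p under 0.05 there was 1 at day 1 (12.9% of all genes) and 2 at day 14 (23.2%).

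The same samples differed in other measures at day 28. Of the 11 macrophage and monocyte markers, 7 were called higher with FK506 6 mg/kg (median change 0.70), all 11 with CsA 25 mg/kg (0.94), and 10 between FK506 and Rapa 10 mg/kg (0.89). Their summed intensity ran from 9470 to 16593 in FK506 rats, 8929 to 17073 in CsA 25 mg/kg rats and 6115 to 11098 in Rapa 10 mg/kg rats, against 6520 to 8292 in vehicle rats. The 15 T cell and NK cell markers summed to 596 to 717 in FK506 rats and 424 to 592 in Rapa 10 mg/kg rats, against 490 to 714 in vehicle rats. Neutrophil and endothelium markers differed too. The 6 neutrophil markers measured, of 8, summed to 94 to 525 in FK506 rats and 243 to 2013 in Rapa 10 mg/kg rats, against 77 to 186 in vehicle rats. The 1 that passed the dim filter was lower with FK506 than with Rapa (-1.56). The 5 endothelium markers measured, of 6, summed to 3666 to 4239 in FK506 rats and 4418 to 5572 in Rapa 10 mg/kg rats, against 3718 to 4265 in vehicle rats, and 2 of them were called lower with FK506 than with Rapa. The mean of the hybridization controls was 9.42 ± 1.00 with FK506 6 mg/kg (SD, n = 5), against 10.89 ± 0.06 with vehicle (n = 5) and 11.01 ± 0.15 with Rapa 10 mg/kg (n = 6). With that mean as a covariate 8 genes were called higher with FK506 against vehicle and 12 against Rapa. The shares of all genes called in that fit were not counted. The part of these cell markers in the results was not tested.

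Between day 1 and day 28 the effect of CsA 25 mg/kg changed in 2 genes, both downward (2.83% of all genes upward, 2.09% downward). They were Mx2 (-1.84, SE 0.56, limma adjusted p = 0.0332) and Bst2 (-0.93, SE 0.28, adjusted p = 0.0335), and without the high-Alb arrays neither was called. Both changes include the array with zeros. The effect of FK506 6 mg/kg changed in Irf1, upward (0.74, SE 0.22, adjusted p = 0.0421; 1.86% upward, 1.45% downward), and that of Rapa 10 mg/kg in none (5.51% of all genes called), with 4 of the 39 at an unadjusted p under 0.05 in limma (18.9% of all genes). Between vehicle rats at day 28 and at day 1 none of the 39 was called in limma (2.08% of all genes), with 6 at an unadjusted p under 0.05 (14.6%).

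One rat of day 1 was the highest of all. Rapa 1 mg/kg replicate 3 had a median change of 1.01, with -0.17, 0.11 and -0.46 in the other rats of its group, which is within Dixon's limit for a group of 4. It lay above all vehicle rats in 36 of 39 genes, and in 27.9% of all genes. It had the highest value of all arrays in 18 of the 39, a count not made over all genes. Its Mx1 was 9.23, with 6.50, 7.11 and 5.78 in the other rats of its group, and its Isg15 was 9.37, with 7.06, 7.33 and 6.68. Slfn4 was at 10.80, with 8.13, 9.04 and 7.68, and Irf7 at 10.61, with 8.45, 9.05 and 7.75. No member was called in limma in that group (3.09% of all genes called either way), nor with FK506 0.6 mg/kg at day 1 (0%) or day 28 (4.34%). Each had 1 at an unadjusted p under 0.05, beside 15.5% of all genes with Rapa 1 mg/kg, 3.50% with FK506 0.6 mg/kg at day 1 and 17.7% at day 28.

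Of 141 further genes of the interferon pathway, 83 were measured above the dim filter, and they were read in the same comparisons. After 1 dose of CsA 25 mg/kg none was called (0.619% of all genes higher, 0.0563% lower). With Rapa 10 mg/kg at day 7, 10 were lower and none higher (4.30% of all genes lower, 3.03% higher), and the median change of the 83 was -0.17. Those lower included the immunity-related GTPase Irgm (-0.90), Slfn2 (-0.86), the helicase Helz2 (-0.52) and the nuclear body gene Sp110 (-0.48). With Rapa 1 mg/kg 8 were lower (2.60% of all genes), led by the cytidine deaminase Apobec1 (-1.40), Slfn2 (-0.85) and Irgm (-0.69). With FK506 6 mg/kg at day 28, 25 were higher and 1 lower (8.63% of all genes higher, 7.35% lower). The rises were led by the chemokine Cxcl10 (1.12), Ifitm1 (0.88), the cytokine brake Socs3 (0.75) and the ubiquitin ligase Rnf213 (0.72). With CsA 25 mg/kg at day 28, 24 were higher and 3 lower (10.5% of all genes higher, 10.6% lower). The rises were led by Socs3 (1.00), Ifitm1 (0.91), the monocyte chemokine Ccl2 (0.84) and Cxcl10 (0.83). Irf2, which competes with Irf1 for its sites, was lower (-0.81). Between FK506 6 mg/kg and Rapa 10 mg/kg at day 28, 20 were higher and 1 lower (6.68% of all genes higher, 4.23% lower). Those higher were led by Cxcl10 (1.16), Rnf213 (0.83), Cxcl11 (0.76) and Ifitm1 (0.71). The T cell chemokine Ccl5 was lower with Rapa 10 mg/kg at day 14 (-0.73) and day 28 (-0.66) and with Rapa 1 mg/kg at day 14 (-0.88).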

How the data were processed

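Kidney RNA of 120 rats was labelled in 1 cycle and hybridized to 1 Affymetrix rat array per animal, per the labels' protocols. The deposited table holds the intensity of 31099 probe sets on a linear scale, from 0 to 30646.3. How the authors summarized the probes and scaled the arrays is not given in the sources used here. Precision is limited by the number of rats, since arrays hold no counts. All per-sample columns were used.

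The 57 control probe sets were set aside, and log2 of the intensity plus 16 was quantile normalized. Of the other probe sets 20826 mapped to 1 gene, 436 to several and 9780 to none in the platform annotation, and for each of 14217 genes the brightest was kept. The 25% dimmest genes (3554) were left out, which left 10663. Groups were taken from the labels. All arrays entered 1 limma fit (version 3.58.1, R 4.3.3) that gave each group its mean (92 residual and 2.95 prior degrees of freedom), with two-sided moderated tests, Benjamini-Hochberg adjustment over all genes of a comparison, and a call at an adjusted p under 0.05. Each treated group was set against the vehicle rats of its day (24 comparisons), and 15 further comparisons were made between drugs, doses and days. Errors are standard errors for changes and SD for levels. The labels give no batch or scan date. The procedure was tested on simulated data.

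The members, the gene lists and the alternatives were chosen with earlier results of these data known. Per-rat values are given for up to 4 called rises and 4 called falls per comparison with vehicle and for Mx1, Mx2, Isg15, Irf7, Irf1, Psmb8, Tap1 and Gbp2 where a group is described. Of the other pathway genes up to 4 called ones are named by size of change. The alternatives were an intensity trend, no filter on dim genes, no quantile normalization, the mean of all probe sets of a gene, an offset of 1, a fit to the compared days alone and leaving out each rat in turn. Added after seeing the data were leaving out arrays with Alb above 12, the hybridization controls or the Gapdh 3-prime minus 5-prime level as a covariate, and leaving out rats in groups of 6.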

Additional observations from a re-analysis of the deposited data

Results flagged for a closer look

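In groups of 4 to 6 rats, the median over the 39 genes and the levels of Mx1, Mx2, Isg15, Irf7, Irf1, Psmb8, Tap1 and Gbp2 were searched for a rat far from the others. Of 243 sets of rats 15 held one, and chance alone gives about 1 in 20. No cause was tested for any of them.

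In FK506 6 mg/kg at day 28 replicate 3 stood apart in 3 genes. It was at 8.54 in Mx2, with the others between 6.00 and 6.34, at 8.66 in Isg15, with the others between 6.66 and 7.10, and at 10.34 in Irf7, with the others between 8.37 and 8.72. The array with 5273 zeros, of CsA 25 mg/kg replicate 3 at day 28, had a median member change of 0.42, with the others between 0.09 and 0.14.

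High single rats were also found for Mx1 in FK506 0.6 mg/kg at day 7 (7.52 in replicate 3, others 6.32 to 6.45), Isg15 in FK506 0.6 mg/kg at day 14 (7.96 in replicate 4, others 7.18 to 7.24), Irf7 in CsA 2.5 mg/kg at day 28 (9.79 in replicate 1, others 9.06 to 9.25) and Gbp2 in Rapa 1 mg/kg at day 28 (7.76 in replicate 1, others 6.25 to 6.76). Tap1 had a high rat in CsA 25 mg/kg at day 1 (7.72 in replicate 3, others 7.02 to 7.11) and at day 7 (7.38 in replicate 1, others 6.65 to 6.77).

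Low single rats were found for Mx2 in CsA 2.5 mg/kg at day 1 (5.69 in replicate 3, others 6.82 to 6.95) and Isg15 in Rapa 1 mg/kg at day 14 (6.17 in replicate 1, others 7.05 to 7.23). In vehicle rats they were found for Psmb8 at day 7 (7.33 in replicate 3, others 7.64 to 7.67), and for Tap1 at day 1 (6.50 in replicate 4, others 6.94 to 7.03) and day 14 (4.57 in replicate 2, others 6.54 to 6.78).

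In 3 genes the effect of a drug differed between days 28 and 1 in limma's test of the difference. These were Mx2 (-1.84) and Bst2 (-0.93) with CsA 25 mg/kg (2.09% of all genes downward) and Irf1 (0.74) with FK506 6 mg/kg (1.86% upward). The Mx2 and Bst2 calls include the array with zeros and were lost without the high-Alb arrays. All 3 calls were lost with the compared days fitted alone.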

How the results depend on the processing

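The 19 genes called lower with Rapa 10 mg/kg at day 7 came to 14 to 20 under the 7 alternatives run on that comparison, and the 15 called between FK506 6 mg/kg and Rapa 10 mg/kg at day 28 to 12 to 16. In the first, Irf7, Irf8, Ifit2, Isg15, Usp18, Dhx58, Ddx60, Tap1 and Rtp4 were called in each alternative and with each rat left out, as was Irf1 with FK506 6 mg/kg at day 28. No paired analysis was possible because the replicate numbers were given in accession order and pair no rats. The number of rats per group limits what could be called. The shares of all genes called under the alternatives, or with a rat left out, were not counted. The causes of the shifts below were not tested.

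Without quantile normalization the calls came to 3 for Rapa 1 mg/kg at day 7, 0 for each FK506 dose at day 14, 5 between FK506 and Rapa at day 7, 3 between the FK506 doses and 2 for the change of the FK506 effect. With an offset of 1 they came to 1 for CsA 25 mg/kg at day 1, 2 for Rapa 1 mg/kg at day 28, 1 between CsA and FK506 at day 14 and 1 for the change of the CsA effect. With no filter on dim genes they came to 0 for Rapa 1 mg/kg at day 28, 5 between FK506 and Rapa at day 7 and 0 for the change of the FK506 effect. With the mean of all probe sets they came to 1 each for CsA 25 mg/kg and FK506 0.6 mg/kg at day 7 and CsA 25 mg/kg at day 14.

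With the compared days fitted alone, the calls came to 0 for CsA 25 mg/kg at day 1 against vehicle and against FK506, 0 for FK506 0.6 mg/kg at day 14 and 2 for Rapa 1 mg/kg at day 7. At day 28 they came to 2 for CsA 25 mg/kg, 5 for Rapa 10 mg/kg, 0 for Rapa 1 mg/kg, 0 between CsA and FK506, 1 between the CsA doses and 0 between the FK506 doses, with 0 for the change of either effect. Without the high-Alb arrays they came to 0 in both CsA comparisons at day 1, 3 between the CsA doses and 0 for the change of the CsA effect. With the hybridization controls as a covariate they came to 0 for Rapa 1 mg/kg, between CsA and FK506 and between the FK506 doses at day 28, and with the Gapdh covariate to 0 for Rapa 1 mg/kg at day 7.

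With each rat left out in turn, calls at day 1 ran from 0 to 3 for CsA 25 mg/kg and 0 to 7 between CsA and FK506. At day 7 they ran from 12 to 20 for Rapa 10 mg/kg, 0 to 4 for Rapa 1 mg/kg, 1 to 9 between FK506 and Rapa and 0 to 1 for FK506 0.6 mg/kg. At day 14 they ran from 1 to 2 for CsA 25 mg/kg, 0 to 2 for FK506 6 mg/kg, 0 to 1 for FK506 0.6 mg/kg, 0 to 3 for Rapa 10 mg/kg, 3 to 4 for Rapa 1 mg/kg and 0 to 1 between CsA and FK506. At day 28 they ran from 2 to 6 for CsA 25 mg/kg, 4 to 10 for FK506 6 mg/kg, 0 to 4 for Rapa 10 mg/kg, 0 to 8 for Rapa 1 mg/kg, 10 to 16 between FK506 and Rapa, 1 to 3 between CsA and FK506, 3 to 5 between the CsA doses and 1 to 4 between the FK506 doses. They ran from 0 to 3 for the change of the CsA effect and of the FK506 effect. Igtp with CsA 25 mg/kg at day 28 turned to 0.14 against vehicle and 0.09 against CsA 2.5 mg/kg without CsA replicate 3, and its lowest values were -1.16 and -1.21, without replicate 4.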
